A study of Mus musculus with 6 samples.

Results

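The 32 genes described here are an astrocyte gene set, listed by name and found by symbol among the 29547 rows of an RPKM table from the mouse vBNST, the ventral part of the bed nucleus of the stria terminalis. All 32 had a row and all 32 passed the filter on low values, a mean of at least 0.5 RPKM over the libraries, which left 20550 rows to test. By role they were 8 transporters, channels and junction proteins, 9 secreted and matrix proteins, 7 enzymes and metal-binding proteins, 4 receptors and surface proteins, and 4 genes of the cytoskeleton, calcium binding and transcription.

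Astrocytes are the glial cells that take up glutamate and potassium released by neurons, return glutamine to them, and move water and ions between synapses and blood vessels. They are coupled to each other by gap junctions. They also release lipoproteins, protease inhibitors and matrix proteoglycans. In this region, which belongs to the extended amygdala, they surround GABAergic and peptidergic neurons.

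The RNA came from ribosomes pulled down through the phosphorylated form of S6, one of the proteins of the small subunit, and was sequenced after depletion of rRNA. Phosphorylation of S6 rises in active neurons, which is the purpose of the precipitation, and no library is labelled as input RNA, so enrichment of any cell type could not be measured. The groups were Con and CS, with 3 libraries each, and tissue was taken 90 min after mice were tested with CS+ or with CS-. Which of these the CS libraries follow, and what the Con mice received, is not settled by the labels. No source used here gives strain, age or sex, or whether a library is 1 mouse or a pool, so p-values measure the spread between libraries, part of which may be technical. The catalogue number given for the antibody rises by a fixed step from library to library, so whether 1 antibody served all of them is not settled.

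Libraries held 765769 to 1427784 assigned reads in Con and 1365181 to 2342686 in CS. Levels below are RPKM (reads per kilobase of row length and per 1e6 assigned reads) after each library was scaled by its median deviation. This scaling removed a shift by which most rows lay higher in CS as deposited, with a median over all tested rows of 0.41 on the log2 scale before it and 0.03 after it. Differences are CS minus Con on the scale of log2(RPKM + 0.1). They were tested with limma over all 20550 rows with Benjamini-Hochberg adjustment, and a row was called at an adjusted p under 0.05.

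Reads on the astrocyte gene set were present in every library, though 4 of the genes were listed at 0 in Con library 1. Which cells these reads came from was not measured. The 32 genes held 20995 reads in all, between 0.191% and 0.229% of the assigned reads of the Con libraries and between 0.219% and 0.335% in CS, and the groups overlapped. Of the 32, 28 lay above the median tested row and 8 in the top 10% of rows, and Apoe and Sparcl1 together held 46.1% of the reads on the set. The summed level of 15 neuronal markers was 1270.5 to 1539 RPKM in Con and 793 to 1051 RPKM in CS, against 763 to 847 RPKM and 648 to 1023 RPKM for the 32 astrocyte genes. The neurofilament genes Nefl (mean of 464 RPKM in Con and 229 in CS) and Nefm (398 and 222) made up much of the neuronal sum. By voom these 2 and Syt1 were called lower, 3 of the 15, where 7.05% of all rows were called lower. Of the 15 estimates 9 were above 0, and the median of the 15 was 0.17. Among genes of the vBNST, the peptide genes Penk (110 ± 11.2 RPKM in Con and 162 ± 38.3 in CS; SD, n = 3 per group) and Sst (24.5 ± 6.6 and 57.5 ± 20.8) and the transcription factor gene Lhx8 (means of 9.77 and 9.79) were present, whereas the estrogen receptor gene Esr1 had means of 0.376 and 0.651 RPKM. Of 16 such genes 9 estimates were above 0 and 7 below. Voom tested 10 of them and called 1, the transcription factor gene Lhx6, lower in CS (16.3 ± 0.261 and 8.19 ± 3.37 RPKM, limma voom adjusted p = 0.0264). The share of all rows called lower by voom was again 7.05%. In pulldowns without input RNA, fewer cells of a type, less RNA per cell and less phosphorylated S6 in the cells cannot be told apart.

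No astrocyte gene passed the test. By limma 0 of 32 were called (adjusted p from 0.25 to 0.994), where 0.968% of all tested rows were called, 0.175% higher (36 rows) and 0.793% lower (163 rows), a split of 35 higher to 30 lower with the values as deposited. Before adjustment 2 of the 32 were lower and 0 higher at p under 0.05, and of all rows 12.5% were, 8.77% lower and 3.77% higher. With the values as deposited, where every estimate of the 32 lay 0.37 higher, these 2 no longer reached p under 0.05. Ncan, Agt and Mt1 did, all higher in CS, and the share of all rows at that p was not counted as deposited. With limma voom, which models the reads recovered from the table, 26 of the genes had the 60 reads required and 0 were called, where 7.26% of rows were called, 0.21% higher and 7.05% lower. Before adjustment voom had S100b and Sox9 lower and 0 genes higher at p under 0.05, and of all rows 19.4% were, 15.8% lower and 3.57% higher. The median log2 fold change was 0.01, with 18 estimates above 0 and 14 below, against a median of 0.03 and 52% of estimates above 0 over all tested rows. As deposited, 28 estimates were above 0 and 4 below (S100b, F3, Sox9 and Fgfr3), where 13648 of all tested rows were above 0 and 6902 below.

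The size of a change that could have been seen differed between genes. The 95% interval of the log2 fold change lay wholly within 1 log2 unit of 0 for 15 of the 32 genes, and its median half-width was 0.78. The 2 genes whose interval left out 0 were F3 and S100b. These intervals are not adjusted for the number of rows, of which 12.5% had p under 0.05, and neither gene was called. With 3 libraries per group and at this depth limma called no difference for any of the 32. This does not show that the groups are alike. The median size of the estimate, without regard to sign, was 0.22 over the 32 genes and 0.64 over all rows, and the median standard error was 0.32 and 0.57.

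**Figure D1:**
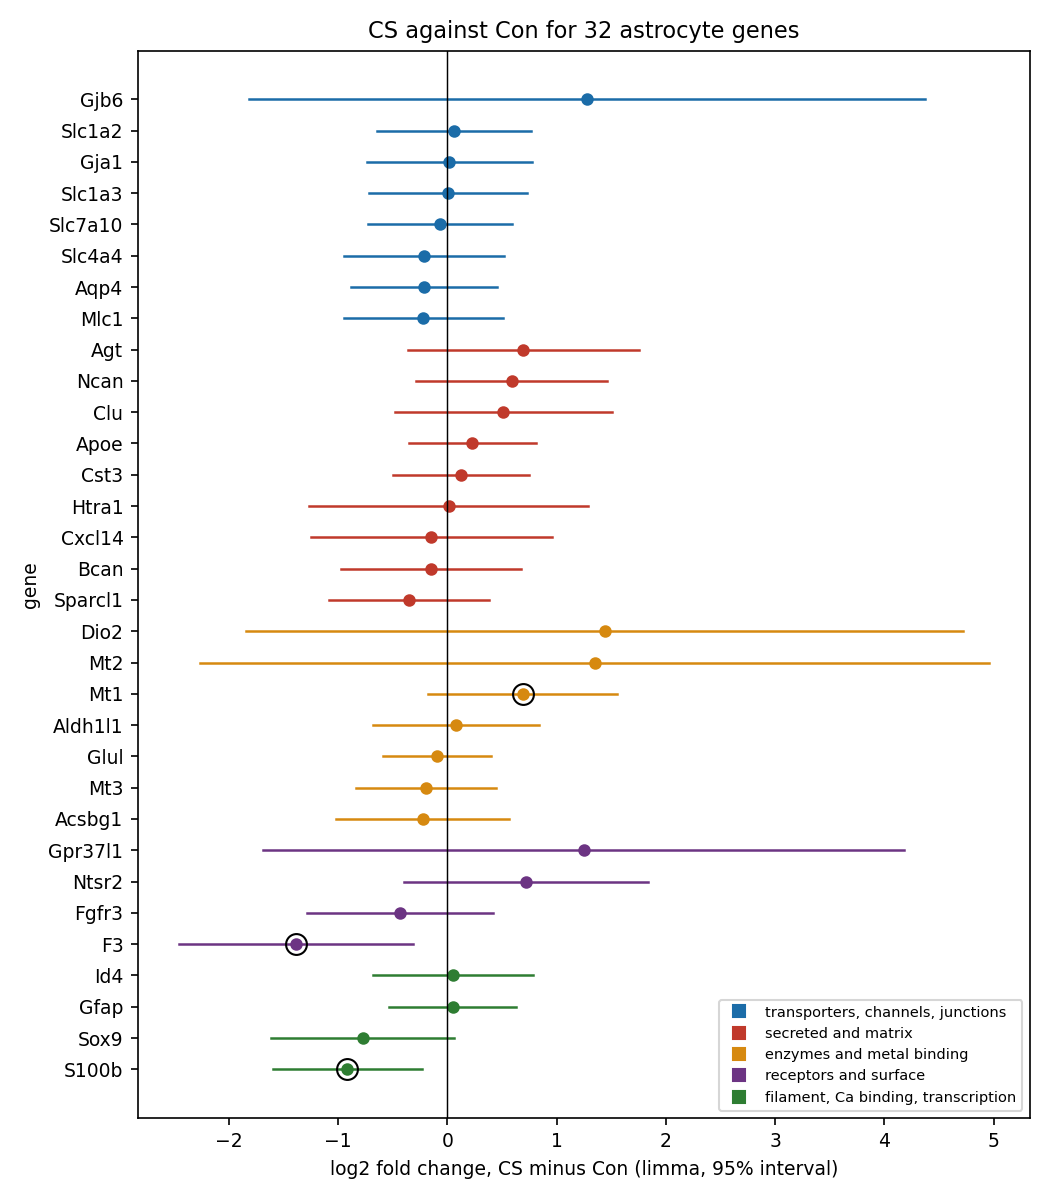
Log2 fold change of each of the 32 astrocyte genes, CS minus Con, with the 95% interval from limma (n = 3 libraries per group), coloured by role and ordered by estimate within each role. Black circles mark the 3 genes, Mt1, F3 and S100b, whose CS libraries did not overlap the Con libraries. Every interval but those of F3 and S100b crosses 0, and those of Gjb6, Dio2, Mt2 and Gpr37l1, listed at 0 in Con library 1, are the widest.

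The groups did not overlap for 3 of the 32 genes, 1 higher (Mt1) and 2 lower in CS (F3 and S100b), where 19.1% of all tested rows had groups that did not overlap, 7.93% higher and 11.2% lower. S100b encodes a small calcium-binding protein that astrocytes hold in the cytoplasm and release. It stood at 15.9, 24.3 and 12.2 RPKM in Con and at 10.4, 8.36 and 8.11 RPKM in CS (libraries 1 to 3, in this order here and below). All CS values lay below all Con values, though Con library 3 and CS library 1 were close, and the spread was wider in Con. The log2 fold change was -0.91 ± 0.29 SE (95% interval -1.60 to -0.23, limma adjusted p = 0.25), and by voom -0.94 (limma voom adjusted p = 0.116). As deposited it was -0.54.

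F3 encodes tissue factor, the receptor that starts blood clotting, which astrocytes carry in the brain. It stood at 2.34, 1.70 and 3.07 RPKM in Con and at 0.901, 0.775 and 0.841 RPKM in CS. These levels rest on 4, 5 and 9 reads of the Con group and 4, 3 and 6 of the CS group, so the closeness of the CS values says little about their precision. The log2 fold change was -1.39 ± 0.45 SE (limma adjusted p = 0.265), or -1.01 as deposited, and F3 had too few reads for voom.

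Next to these in p was Sox9, the transcription factor gene of the glial fate. Its levels were 8.94, 5.82 and 12.9 RPKM in Con and 5.37, 6.16 and 4.02 RPKM in CS. Con library 2 lay below CS library 2, so the groups overlapped, and the log2 fold change was -0.77 ± 0.35 SE (limma adjusted p = 0.429, limma voom adjusted p = 0.177). As deposited the estimate was -0.40. Without Con library 2, the only Con library below a CS library, voom called Sox9 lower, at an adjusted p of 0.0255 from limma voom. That fit was added after seeing the data and leaves out the overlap. With 1 library left out, 8 to 920 of all rows were called over both tests. None of the 32 genes was called in the other settings tried.

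The other genes of the same role gave near-equal group means. Gfap, the intermediate filament gene that defines many astrocytes, had 30.9, 18.1 and 29.3 RPKM in Con and 23.2, 26.9 and 29.1 RPKM in CS. Its CS libraries lay inside the range of the Con libraries (log2 fold change 0.05 ± 0.24 SE, 95% interval -0.53 to 0.63). Id4, an inhibitor of helix-loop-helix transcription factors, had group means of 31.95 and 31.96 RPKM, with 21.2 to 45.2 RPKM in Con and 25.4 to 36.2 RPKM in CS. Within this role, then, S100b and Sox9 had estimates below -0.7 and the other two lay within 0.1 of 0, and whether they differ from each other was not tested.

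**Figure D2:**
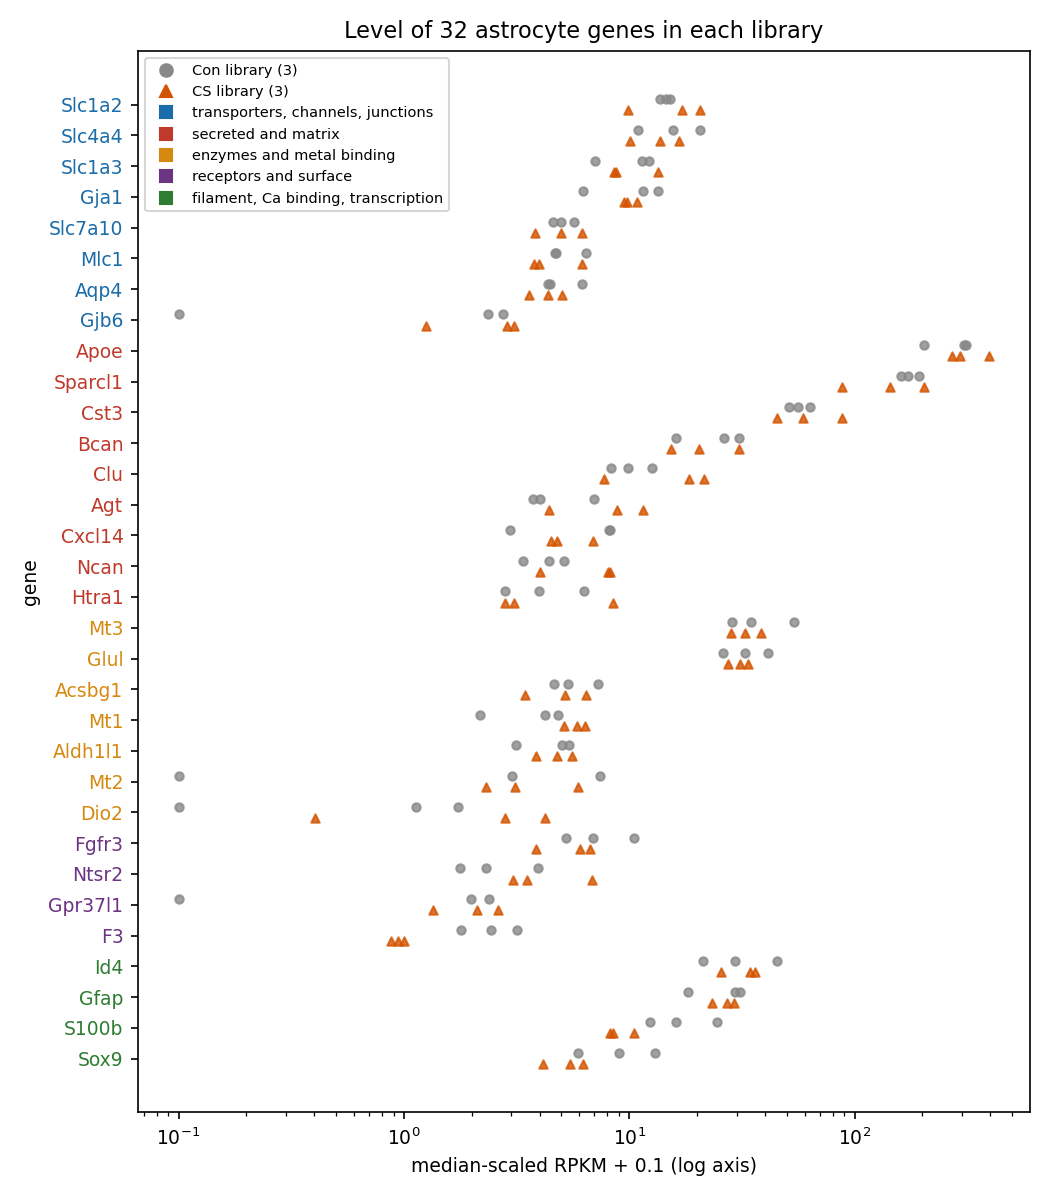
Median-scaled level of each gene in each of the 6 libraries, as RPKM + 0.1 on a log axis, with Con libraries as grey circles, CS libraries as orange triangles and gene names coloured by role. Apoe, near 300 RPKM, is the highest and most genes lie between 2 and 40 RPKM. The points at the left edge are the 4 genes listed at 0 in Con library 1.

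The transporters and channels had mostly small estimates. Glutamate is cleared by Slc1a2 (GLT-1) and Slc1a3 (GLAST). Slc1a2 had 13.6, 15.1 and 14.5 RPKM in Con and 17.1, 20.4 and 9.73 RPKM in CS. The Con libraries were close together, while the CS libraries lay on both sides of them, so the CS mean of 15.8 ± 5.47 RPKM differed from the Con mean of 14.4 ± 0.744 by less than the CS spread. Slc1a3 had 12.1, 11.3 and 6.98 RPKM in Con and 8.47, 13.3 and 8.67 RPKM in CS, and its group means were both 10.1 RPKM. The level of Slc1a2 relative to Slc1a3, both per length, was 1.12 to 2.07 in Con and 1.12 to 2.02 in CS.

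The gap junction genes differed more in level than in group. Gja1 encodes connexin 43, the main astrocyte connexin, and had 11.4, 13.3 and 6.12 RPKM in Con and 9.35, 10.7 and 9.69 RPKM in CS. Con libraries lay both above and below all CS libraries. Gjb6, connexin 30, was listed at 0 in Con library 1. There 1 read on a row of 1 kilobase is worth 1.31 RPKM as deposited, before scaling, and the Gjb6 row has 2269 bases. Gjb6 had 2.27 and 2.66 RPKM in the other Con libraries and 2.76, 1.15 and 2.97 in CS. Its log2 fold change of 1.28 ± 1.29 SE is set mainly by that empty library: without Con library 1 it was -0.24.

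Aqp4, the water channel of astrocyte endfeet, had 4.37, 6.09 and 4.25 RPKM in Con and 4.93, 4.24 and 3.48 RPKM in CS, with overlapping groups (log2 fold change -0.21 ± 0.28 SE). Mlc1, an endfoot membrane protein that acts in volume regulation, had -0.22 ± 0.30. Slc4a4, the sodium bicarbonate cotransporter, had -0.21 ± 0.30, and Slc7a10, a transporter of small neutral amino acids including D-serine, had -0.07 ± 0.27. In each of these 4 genes the groups overlapped, and with the values as deposited all 4 estimates lay above 0 (from 0.15 to 0.31). Of the 8 genes in the role, 4 estimates were above 0 and 4 below, and 7 lay within 0.5 of 0.

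Secreted proteins held the 3 most abundant genes of the set, Apoe, Sparcl1 and Cst3. Apoe, the lipoprotein that carries cholesterol from astrocytes, had 306, 312 and 203 RPKM in Con and 294, 396 and 269 RPKM in CS. Con library 3 was the lowest and CS library 2 the highest, and the others lay between 269 and 312 RPKM (log2 fold change 0.23 ± 0.24 SE). Clu, the extracellular chaperone clusterin, had 8.17, 12.5 and 9.79 RPKM in Con and 18.2, 21.3 and 7.62 RPKM in CS. CS libraries 1 and 2 were above every Con library and CS library 3 was below every Con library, so the estimate of 0.51 ± 0.41 SE does not describe the CS libraries as a group.

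The same order of libraries was seen in Agt and Ncan, except that CS library 3 did not fall below all Con libraries. Agt, which encodes angiotensinogen, had 3.91, 3.63 and 6.85 RPKM in Con and 8.73, 11.4 and 4.31 RPKM in CS (0.70 ± 0.44 SE). Ncan, the proteoglycan neurocan, had 3.29, 4.30 and 5.04 RPKM in Con and 7.92, 8.08 and 3.94 RPKM in CS (0.59 ± 0.36 SE). In both genes CS libraries 1 and 2 were above all Con libraries and CS library 3 lay among them. Bcan, the related proteoglycan brevican, had 26.2, 16.1 and 30.6 RPKM in Con and 20.3, 30.7 and 15.2 RPKM in CS, with a log2 fold change of -0.15 ± 0.34 SE. The level of Bcan relative to Ncan was 3.74 to 7.97 in Con and 2.57 to 3.87 in CS, and the ranges overlapped.

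Sparcl1 (hevin), which promotes synapse formation, had 173, 160 and 192 RPKM in Con and 143, 203 and 87.9 RPKM in CS. The CS libraries spanned the Con range and reached well below it (-0.35 ± 0.31 SE). Cst3, the protease inhibitor cystatin C, had 50.9 to 63.1 RPKM in Con and 45.03 to 88.2 RPKM in CS (0.13 ± 0.26 SE). The serine protease gene Htra1 had 0.01 ± 0.53 and the chemokine gene Cxcl14 -0.15 ± 0.46, on 108 and 90 reads in all. None of the 9 secreted genes had groups that stood apart.

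Among the enzymes, Glul, glutamine synthetase, which turns the glutamate taken up into glutamine, varied little. It had 32.5, 41.1 and 26.0 RPKM in Con and 33.4, 31.0 and 27.4 RPKM in CS, all CS values inside the Con range (log2 fold change -0.10 ± 0.21 SE, 95% interval -0.59 to 0.40). Aldh1l1, the folate enzyme widely used to mark astrocytes, had 4.91, 5.33 and 3.06 RPKM in Con and 4.67, 5.49 and 3.76 RPKM in CS (0.08 ± 0.32 SE). Acsbg1, an acyl-CoA synthetase, had -0.23 ± 0.33. Dio2, the deiodinase that activates thyroid hormone, was listed at 0 in Con library 1 and had 1.03 and 1.63 RPKM in the other Con libraries, against 4.11, 2.70 and 0.305 RPKM in CS. The CS libraries of Dio2 thus differed more among themselves than the groups did (1.44 ± 1.37 SE, and 0.21 without Con library 1).

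The metallothioneins bind zinc and copper, and Mt1 and Mt2 are induced by metals and glucocorticoids, while Mt3 is the constitutive brain form. Their 3 genes lie side by side on the plus strand of chromosome 8 (GRCm38), Mt3 at 94152607 to 94154146, Mt2 at 94172664 to 94173568 and Mt1 at 94179082 to 94180327. Mt3 had 34.7, 54.0 and 28.3 RPKM in Con and 38.5, 28.2 and 32.6 RPKM in CS, with overlapping groups (-0.20 ± 0.27 SE). Mt1 had 4.75, 4.14 and 2.08 RPKM in Con and 5.03, 5.76 and 6.25 RPKM in CS. All CS libraries were above all Con libraries, by little between Con library 1 and CS library 1, and the counts were 4, 6 and 3 reads in Con and 11, 11 and 22 in CS. The log2 fold change of Mt1 was 0.69 ± 0.36 SE and did not pass (limma adjusted p = 0.503), and without Con library 3 it was 0.33.

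Mt2 had 0, 2 and 5 reads in Con and 6, 2 and 5 in CS, so its estimate of 1.35 ± 1.51 SE carries no direction, and without Con library 1 it was -0.47. The row of Mt2 also shares 432 of its 588 bases with RP23-98C9.5 on the opposite strand, which held 18 reads against 20 for Mt2. The level of Mt3 relative to Mt1 was 7.31 to 13.6 in Con and 4.89 to 7.65 in CS, and these ranges overlapped. The 3 neighbours thus did not share a direction larger than their spread.

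The windows around the RefSeq start sites of these genes (GRCm38.p6, 250 bases before to 50 after the start, plus strand) are shown because Mt1 and Mt3, neighbours on one strand, differed in level by 4.89- to 13.6-fold within a library. Capitals mark the core of the metal response element, TGCACNC or TGCGCNC, on either strand.
Mt1, chr8:94178839-94179138: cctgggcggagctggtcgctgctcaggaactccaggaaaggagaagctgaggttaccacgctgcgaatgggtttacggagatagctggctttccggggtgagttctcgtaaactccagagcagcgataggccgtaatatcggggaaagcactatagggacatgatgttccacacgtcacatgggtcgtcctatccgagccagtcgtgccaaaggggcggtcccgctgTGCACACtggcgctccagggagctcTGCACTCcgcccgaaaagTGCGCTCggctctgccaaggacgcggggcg
Mt2, chr8:94172368-94172667: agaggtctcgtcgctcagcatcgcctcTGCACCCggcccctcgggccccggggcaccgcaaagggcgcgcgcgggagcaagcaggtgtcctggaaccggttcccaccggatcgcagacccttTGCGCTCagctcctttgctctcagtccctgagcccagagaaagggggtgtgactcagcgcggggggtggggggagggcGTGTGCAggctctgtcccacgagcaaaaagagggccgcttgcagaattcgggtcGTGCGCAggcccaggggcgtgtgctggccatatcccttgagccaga
Mt3, chr8:94152357-94152656: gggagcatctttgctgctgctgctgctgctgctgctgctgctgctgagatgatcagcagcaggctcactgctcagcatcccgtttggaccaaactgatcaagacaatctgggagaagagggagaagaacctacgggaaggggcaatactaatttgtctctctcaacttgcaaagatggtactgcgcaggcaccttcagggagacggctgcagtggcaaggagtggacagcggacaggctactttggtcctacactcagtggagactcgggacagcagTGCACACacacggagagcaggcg

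The Mt1 window held 3 matches, the Mt2 window 4 and the Mt3 window 1. Of all 32851 promoter windows of this length in the table, 25.7% held at least 1 match and 1.97% held 3 or more. RefSeq start sites were found for 28 of the 32 genes, and for 25 the window lay within 1000 bases of the 5′ end of the deposited row; 9 of these 25 held at least 1 match (36%). The STAT motif TTCNNNGAA, a site of the pathway that drives astrocyte differentiation, was found in 5 of the 25 windows (20%) and in 8.3% of all windows. TATAAA was in 5 of the 25 and in 13.6% of all windows. The cAMP response element TGACGTCA was in 1 of the 25, that of Dio2, and in 1.79% of all windows, and the NFI palindrome was in 0 of the 25 and in 0.0365%. Both strands were searched for each motif. A match is a string of letters and not a bound site. Aqp4, Clu, Sparcl1 and Sox9 had no entry.

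Receptors and surface proteins rested on few reads. Fgfr3, a fibroblast growth factor receptor of astrocytes and their precursors, had 6.82, 5.16 and 10.4 RPKM in Con and 5.97, 6.57 and 3.76 RPKM in CS (-0.44 ± 0.35 SE, or -0.06 as deposited). The groups overlapped, and 998 bases of its row are shared with G630022F23Rik on the opposite strand. Ntsr2, a neurotensin receptor of astrocytes, had 3.82, 2.22 and 1.67 RPKM in Con and 2.95, 6.75 and 3.43 RPKM in CS on 50 reads (0.72 ± 0.47 SE). Gpr37l1, a receptor for prosaposin-derived peptides, was listed at 0 in Con library 1 and otherwise had 1.25 to 2.51 RPKM (1.25 ± 1.22 SE, and -0.19 without Con library 1).

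Transporters and channels were then set against the secreted, enzyme and metal-binding genes, 8 against 16. The median log2 fold change was -0.03 in the first and 0.10 in the second, a difference of -0.13. Members listed at 0 in a library weigh heavily here, so the comparison by library used the 7 and 14 genes with a read in every library, for which the medians were -0.07 and 0.05. By library, the mean of the transport genes minus that of the secreted and metabolic genes, each gene taken from its own mean over the 6 libraries, was 0.15, 0.04 and 0.13 on the log2 scale in Con and -0.15, -0.26 and 0.10 in CS. CS libraries 1 and 2 lay below every Con library and CS library 3 lay among them. The difference between the roles was therefore not shared by the CS libraries, and leaving out CS library 3 moved the difference of medians from -0.13 to -0.31.

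**Figure D3:**
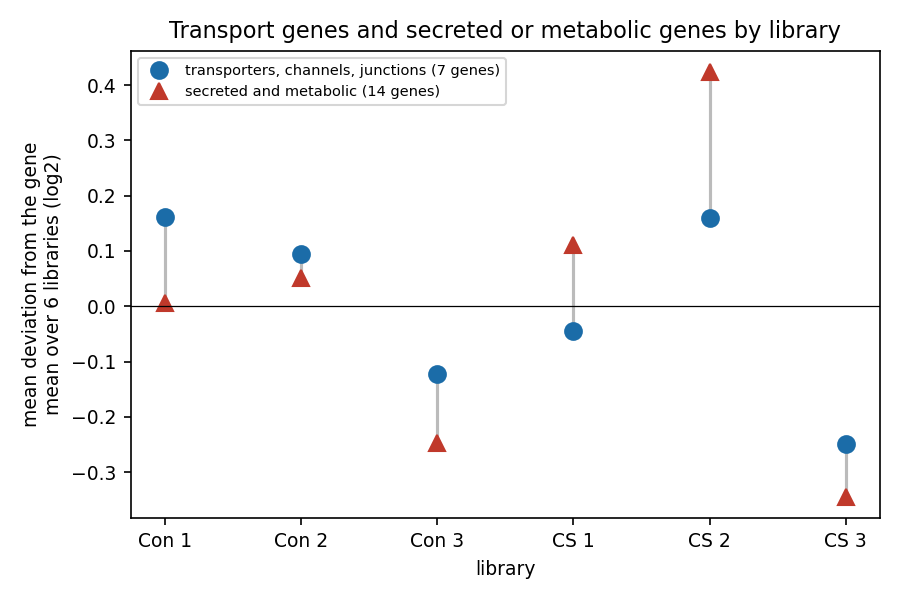
Mean deviation, on the log2 scale, of 7 transport genes (blue circles) and 14 secreted or metabolic genes (red triangles) from each gene's own mean over the 6 libraries, for genes with a read in every library. In CS libraries 1 and 2 the secreted and metabolic genes lie above the transport genes, by 0.15 and 0.26, and in the other 4 libraries they lie below them. Both roles are lowest in CS library 3.

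The CS libraries differed from each other in one order over most of the set. Among the 28 genes with a read in every library, CS library 2 was the highest CS library in 19 (67.9%) and CS library 3 the lowest in 19 (67.9%). Over the 11954 tested rows with a read in every library these shares were 39.7% and 38.3%, and over 43 further astrocyte genes 44.2% and 51.2%. The genes share their libraries, so they are not 28 independent observations. In Con the highest library was spread over all 3 libraries, with 9, 10 and 9 genes. The summed level of the 32 genes followed this order, with 807, 1023 and 648 RPKM in CS libraries 1, 2 and 3 and 847, 836 and 763 RPKM in Con.

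**Figure D4:**
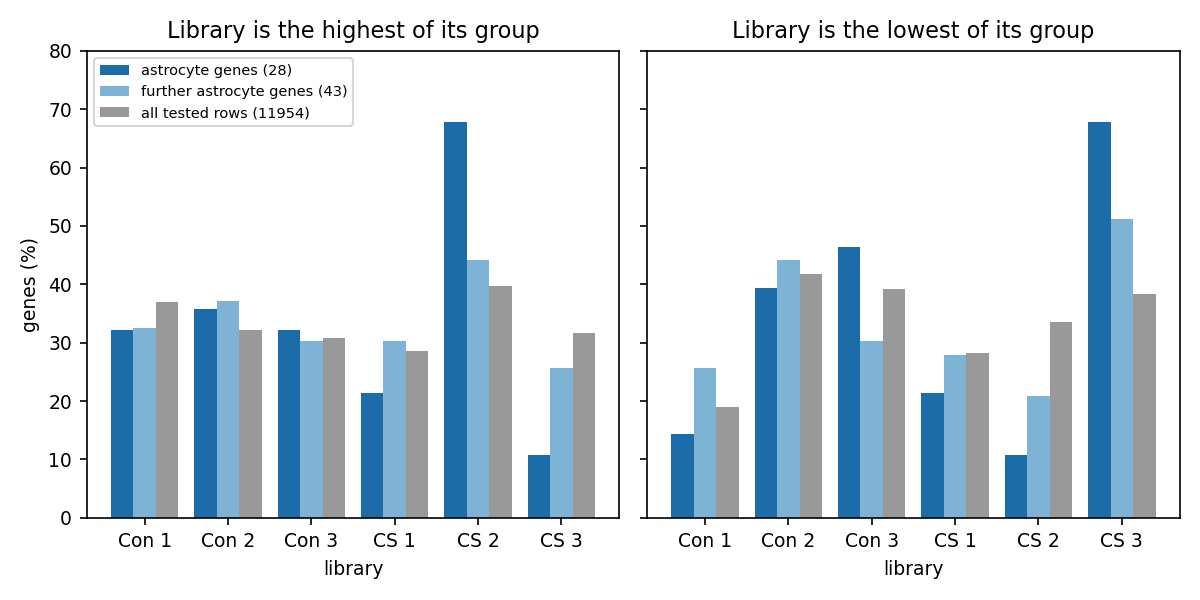
Share of genes for which each library is the highest (left) or the lowest (right) of the 3 libraries of its group, for the 28 astrocyte genes, 43 further astrocyte genes and 11954 tested rows that have a read in every library. CS library 2 is the highest and CS library 3 the lowest in 67.9% of the 28 astrocyte genes, against 44.2% and 51.2% of the further astrocyte genes and 39.7% and 38.3% of all rows.

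Other markers in the same libraries bear on this order. Of 15 neuronal markers, CS library 2 was the highest of its group in 8 and CS library 3 the lowest in 9. Oligodendrocyte markers, 13 genes, summed to 259 to 377 RPKM in Con and to 137, 258 and 158 RPKM in CS, without overlap. By voom 1 of 10 was called lower and 0 higher, where 7.05% of all rows were called lower and 0.21% higher. Ependymal and choroid plexus markers, 9 genes of which 1 to 3 were at 0 in each Con library and 0 to 2 in each CS library, summed to 118, 88.8 and 44.2 RPKM in CS. Microglial markers summed to 56.3, 49.4 and 40.3 RPKM in CS, oligodendrocyte precursor markers to 9.5, 16.3 and 12.2 RPKM, and endothelial and mural markers to 16.7, 23.9 and 18.6 RPKM. CS library 3 thus had the lowest sum for the neuronal, ependymal and microglial lists and CS library 1 for the oligodendrocyte, precursor and endothelial lists, and their part in the astrocyte values was not tested.

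A second list of 60 astrocyte genes outside the 32 gave a similar count. Of these, 58 had a row and 50 were tested, with 28 estimates above 0 and 22 below, a median of 0.13, and 0 called by limma (before adjustment 3 lower and 0 higher at p under 0.05). By voom 1 of 40 was called, lower in CS, and 0 higher, where 7.05% of all rows were called lower and 0.21% higher.

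In 3 genes of this list with a small p all CS libraries lay below all Con libraries, and neither test called them. Hepacam, the adhesion protein that holds Mlc1 at endfeet, had 5.74 to 8.0 RPKM in Con and 2.93 to 4.76 RPKM in CS (log2 fold change -0.86 ± 0.28 SE, limma adjusted p = 0.277). Gpc5, a glypican, had -1.07 ± 0.37, and Ttyh1, a membrane protein of the tweety family, had -0.35 ± 0.16, or 0.02 as deposited. Over the list 8 genes lay below Con and 1 above it without overlap, against 11.2% and 7.93% of all tested rows. The potassium channel gene Kcnj10 (0.17 ± 0.34) and the GABA transporter gene Slc6a11 (0.22 ± 0.31), with roles like those of the members, had overlapping groups.

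Another list held genes that share the glutamate and glutamine cycle with astrocytes, together with monocarboxylate transporters and lactate dehydrogenases. Limma called 0 of its 16 tested genes (before adjustment 0 higher and 1 lower at p under 0.05), and voom called 0. Slc16a1, a monocarboxylate transporter that exports lactate, had 5.01, 4.08 and 4.29 RPKM in Con and 1.42, 3.54 and 1.12 RPKM in CS (-1.28 ± 0.48 SE on the log2 scale, with an adjusted p of 0.34 by limma). The mitochondrial enzymes Glud1 (0.47 ± 0.21) and Got2 (0.51 ± 0.28), which feed glutamate into the citric acid cycle, had the largest estimates above 0 among the 4 genes with the smallest p, and the groups overlapped in both. Ldha, lactate dehydrogenase, had -0.43 ± 0.24. The estimate was above 0 for 11 of the 16 genes and the median was 0.22.

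The 32 rows lie on 15 chromosomes, and their median length of 2908 bases was close to the 2744 of all tested rows. Another row overlapped an exon on the opposite strand for 8 of them (Slc1a2, Slc7a10, Glul, Aldh1l1, Dio2, Mt2, Fgfr3 and Id4). The partner of Slc7a10, Lrp3, held 243 reads against 97, and A330033J07Rik held 274 reads against 472 for Id4. How many reads such pairs share was not measured.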

How the data were processed

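RNA on phosphorylated ribosomes of the mouse vBNST was measured in 3 Con and 3 CS libraries. The deposited table gives RPKM computed by the authors. Trimmomatic 0.36 and Subread 1.5.1 (featureCounts) are named, with GRCm38 and mm10, per the submitters' processing notes; the sources used here give no aligner or strand setting. RPKM times length gave whole reads for 100% of values (tolerance 0.01 read), from which the 765769 to 2342686 reads per library come. Intervals cover the spread between libraries.

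Rows averaging 0.5 RPKM or more were tested as log2(RPKM + 0.1), median-scaled, by the moderated test of limma 3.58.1 (R 4.3.3), with a mean-variance trend and Benjamini-Hochberg adjustment over all rows. limma voom on rows with at least 60 reads was an alternative, beside other pseudocounts, filters, scalings, the replicate block and leaving out each library. The fits were tested on simulated data, where limma missed most of the changes put in. Of the rows limma called there, more were unchanged than changed. Voom, on rows with more reads, missed a smaller share. That test is not used as support for the counts given here. Members and lists were chosen with earlier results of these data known. All 32 members may be named, with values in each library for those with a small p, without overlap, in families, or defining the cell type, and of each other list the 4 genes with the smallest p. Kcnj10, Slc6a11, Esr1, Lhx8, Vim and Ttr were chosen after their values were seen. One gene of the other lists is not reported here. No columns were left out.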

Additional observations from a re-analysis of the deposited data

How the results depend on the processing

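None of the 32 astrocyte genes was called under any alternative except Sox9, lower by voom without Con library 2 (1 gene); voom with libraries left out or with the block was added after seeing the data. Leaving out libraries gave 0 to 1 of the genes called over both tests. The 199 rows called became 112 with a pseudocount of 1, 107 without a filter, 65 as deposited, 110 with quantile normalization, 760 with voom, 525 with voom on library totals, and 8 to 920 when 1 library was left out (at most 297 by limma). Without a mean-variance trend 146 rows were called, 111 higher and 35 lower, against 36 and 163. With the replicate block the count was 0 by limma (0 of the 32 genes) and 750 by voom. Deviations of same-numbered libraries correlated between -0.07 and 0.02, and those of differently numbered libraries between -0.061 and 0.056. With 3 libraries per group this cannot show whether the numbers pair the samples, and the labels do not say. The median of the 32 genes was 0.39 both as deposited and with voom on library totals, where the median of all rows was 0.41 and 0.42.

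None of the estimates that changed sign was called. As deposited every estimate lay 0.37 higher, without a filter every one lay 0.08 lower, and voom on library totals moved estimates up by 0.36 to 0.47 against voom with median scaling, so these changes of sign follow from the scaling of whole libraries. As deposited: Slc4a4 0.16, Slc7a10 0.31, Aqp4 0.16, Mlc1 0.15, Bcan 0.22, Sparcl1 0.021, Cxcl14 0.23, Glul 0.27, Acsbg1 0.15 and Mt3 0.17. With voom on library totals: Slc4a4 0.14, Slc7a10 0.40, Aqp4 0.13, Mlc1 0.17, Bcan 0.21, Sparcl1 0.00998, Cxcl14 0.38, Glul 0.28, Acsbg1 0.076 and Mt3 0.18. With quantile normalization: Slc4a4 0.0072, Slc7a10 0.093, Bcan 0.089, Sparcl1 0.0068, Cxcl14 0.0235, Glul 0.15 and Mt3 0.061. Without a filter: Slc1a2 -0.0202, Slc1a3 -0.074, Gja1 -0.064, Htra1 -0.069, Aldh1l1 -0.0029, Gfap -0.031 and Id4 -0.0295. With a pseudocount of 0.01: Slc1a3 -0.021, Gja1 -0.011 and Htra1 -0.013, and with 1: Glul 0.000822. With voom Slc7a10 had 0.0069, and with voom and the replicate block Id4 had -0.013. The cause of the changes under quantile normalization, the pseudocounts and the block was not tested. When 1 library was left out, by limma or voom, the ranges of the genes whose sign changed were Slc1a2 -0.17 to 0.37, Slc1a3 -0.25 to 0.14, Slc4a4 -0.50 to 0.0121, Slc7a10 -0.23 to 0.16, Gja1 -0.35 to 0.30, Gjb6 -0.24 to 2.08, Bcan -0.47 to 0.0958, Cst3 -0.13 to 0.36, Htra1 -0.50 to 0.40, Cxcl14 -0.69 to 0.29, Glul -0.30 to 0.0671, Aldh1l1 -0.23 to 0.28, Acsbg1 -0.52 to 0.0245, Dio2 -0.17 to 2.49, Mt2 -0.47 to 2.56, Mt3 -0.46 to 0.0684, Gpr37l1 -0.19 to 2.02, Gfap -0.21 to 0.20 and Id4 -0.30 to 0.33.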

Other observations

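Genes of reactive astrocytes, are induced by injury or inflammation. Of 25 listed, 23 had a row and 14 were tested, with 7 estimates above 0 and 7 below, a median log2 fold change of -0.32 (0.05 as deposited), and 0 called by limma (before adjustment 0 higher and 1 lower at p under 0.05; 0 of 5 by voom). Vim, the filament protein vimentin, had 10.6 to 14.7 RPKM in Con and 9.41 to 17.9 in CS, and the groups overlapped. Socs3, the feedback inhibitor of STAT signalling, had 13 reads over the Con libraries and was listed at 0 in all CS libraries (limma adjusted p = 0.155). The complement gene C3 had 1.44 to 1.85 RPKM in Con and 0 to 0.826 RPKM in CS (limma adjusted p = 0.462). The stem cell filament gene Nes had -0.75 ± 0.35 SE on the log2 scale and Hspb1, a small heat shock protein, -0.80 ± 0.56, and neither passed.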
